A study of Homo sapiens with 4 samples.

Results

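The major histocompatibility complex (MHC) on the short arm of human chromosome 6 was followed in 2 lists of open chromatin peaks from LNCaP cells. Members were all peaks of the chromosome 6 sequence of build hg19 with a summit from 28500000 to 33500000, together with all peaks on the 7 alternative sequences that this build holds for the MHC. The chr6 copy held 188 peaks with GSK2879552 and 287 with vehicle. The alternative sequences held 910 peaks with GSK2879552 and 1379 with vehicle. The peaks nearest inside the borders had their summits at 28510570 (43 tags) and 33493326 (13 tags) with GSK2879552, and at 28510575 (47 tags) and 33480048 (13 tags) with vehicle. Those nearest outside were at 28459104 (14 tags) and 33500434 (13 tags) with GSK2879552, and at 28469892 (14 tags) and 33505325 (12 tags) with vehicle, where tags are counts at the summit. All members were taken from 163735 listed peaks with GSK2879552 and 194551 with vehicle.

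LNCaP is a human prostate cancer line. GSK2879552 inhibits the histone demethylase LSD1 (KDM1A), an enzyme that removes methyl groups from histone tails. Cells of both groups are described by the labels as grown with 10% fetal serum and kept in medium with 5% CSS for treatment, and 1 protocol text (50 µM GSK2879552 for 4 hours) is attached to all 4 samples, so the agent label alone separates GSK2879552 from vehicle. Each group was 1 library run on 2 lanes with 1 peak list, so no test between groups was possible and every interval below covers counting error only.

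The MHC is among the most gene-dense and most variable parts of the human genome. Its class I genes, which encode the molecules that show peptides from inside the cell to cytotoxic T cells, lie towards the telomere, at lower coordinates. Class II genes, whose products present peptides to helper T cells and which are used mainly by immune cells, lie towards the centromere, together with genes for peptide processing and transport. The class III part between them carries complement and cytokine genes and many genes that most cells use. The alternative sequences (apd, cox, dbb, mann, mcf, qbl and ssto) are assemblies from other people's cell lines, and some contain gaps. They are reference sequences and not the alleles of LNCaP. Much of their sequence is shared with the chr6 copy, so a read can match several copies equally well. The sources used here do not say how such reads were placed, and peaks at the same site on different copies are therefore not independent measurements. Intervals over the alternative sequences together take tags and peaks as independent, so they may be too narrow. Gene positions in build hg19 were not used here, so sites are named by position.

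Fewer open regions were listed with GSK2879552 on every copy. On the chr6 copy there were 34.5% fewer peaks, a ratio of 0.655 to vehicle, and on the alternative sequences together 34.0% fewer, a ratio of 0.660. On chromosomes 1 to 22, X and Y outside the region the ratio was 0.842, and on the rest of chromosome 6 it was 0.815. Among 588 windows of 5 Mb with at least 100 vehicle peaks elsewhere, the median ratio was 0.834, and 26 windows (4.42%) stood at or below the ratio of the chr6 copy. Ratios as low as that of the MHC were thus also found elsewhere, in a small share of windows.

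The cox sequence carried the most peaks among the alternatives, 191 with GSK2879552 and 287 with vehicle, about as many as the chr6 copy. On the apd sequence only 55 peaks were listed with GSK2879552 and 99 with vehicle, the fewest of any copy and the lowest ratio, 0.556. The dbb sequence held 148 peaks with GSK2879552 and 206 with vehicle, and its ratio of 0.718 was the highest of the 7. Between these extremes lay mann with 124 and 177 peaks, mcf with 123 and 200, qbl with 144 and 225, and ssto with 125 and 185, given for GSK2879552 and then for vehicle. On the alternative sequences of other loci in this build the lists held 113 peaks with GSK2879552 and 158 with vehicle, a ratio of 0.715.

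**Figure D1:**
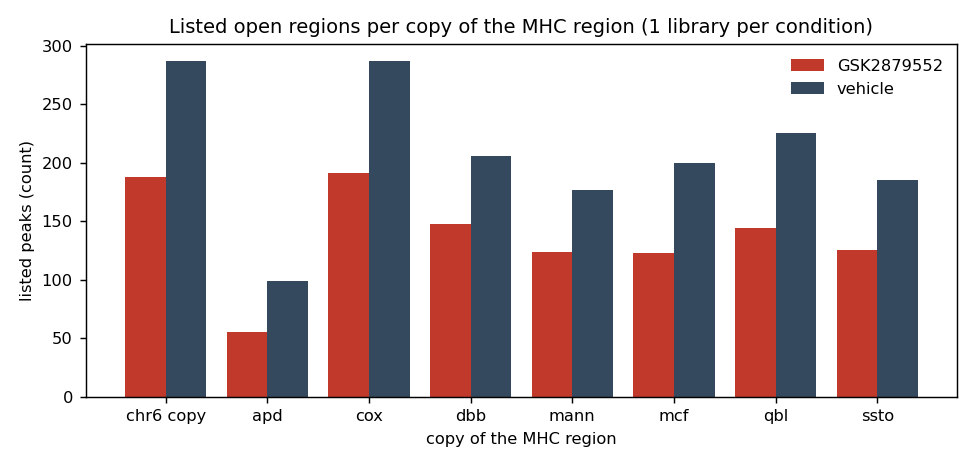
Number of listed peaks on the chr6 copy of the MHC region and on each of the 7 alternative sequences (bars from 0), with GSK2879552 on the left and vehicle on the right of each pair, 1 library per condition. On every copy the GSK2879552 bar is lower, from 55 against 99 on apd to 191 against 287 on cox.

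The listed regions also covered less DNA. On the chr6 copy peaks covered 42.1 kb with GSK2879552 and 70.6 kb with vehicle, and on the alternative sequences 190 kb with GSK2879552 and 345 kb with vehicle. Outside the region they covered 37235 kb with GSK2879552 and 49578 kb with vehicle. The median width on the chr6 copy was 180 bp (interquartile range 136 to 261) with GSK2879552 and 193 bp (132 to 307) with vehicle. Wide regions of at least 500 bp numbered 13 (6.91% of the list there) with GSK2879552 and 24 (8.36%) with vehicle on the chr6 copy. On the alternative sequences they numbered 35 (3.85% of the list there) with GSK2879552 and 130 (9.43%) with vehicle, while outside the region the shares were 7.33% with GSK2879552 and 9.41% with vehicle.

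Few strong sites were listed on any 1 copy of the MHC. The height of a peak is given here as the tags at its summit, a whole number recovered from the fold enrichment and the p-value that the authors' peak caller printed. On the chr6 copy the median was 19.5 tags (interquartile range 15 to 27) with GSK2879552 and 20 tags (15 to 31) with vehicle. The highest summits had 68 tags with GSK2879552 and 86 with vehicle, while those on the rest of chromosome 6 reached 124 with GSK2879552 and 121 with vehicle. At least 60 tags were found at 2 of 188 GSK2879552 peaks (1.06%) and 6 of 287 vehicle peaks (2.09%) on the chr6 copy. Outside the region these shares were 6.82% with GSK2879552 and 9.66% with vehicle. The alternative sequences had 2 such peaks with GSK2879552 and 12 with vehicle. All these heights are per copy. How reads that match several copies were placed is not known, so the heights may not be comparable with those outside.

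Local background was low as well. The caller's background stood at its lowest, genome-wide value for 84.0% of GSK2879552 peaks and 66.9% of vehicle peaks on the chr6 copy. On the alternative sequences this held for 88.5% of GSK2879552 peaks and 71.4% of vehicle peaks, while outside the region it held for 38.4% with GSK2879552 and 40.2% with vehicle. This background is also per copy, so the same limit applies to its comparison with the outside. The part of this background in the peak counts above was not tested.

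Along the chr6 copy the open sites were unevenly spread. Of 10 windows of 0.5 Mb, that from 31.5 to 32.0 Mb, in the middle of the region, held the most GSK2879552 peaks, 38, against 48 with vehicle. That from 28.5 to 29 Mb had 24 peaks with GSK2879552 and 52 with vehicle, the largest count in the vehicle list. The window from 29 to 29.5 Mb was nearly empty, with 0 peaks in the GSK2879552 list and 2 in the vehicle list, at chr6:29040040-29040151 with 19 tags and chr6:29241696-29241821 with 11 tags. A typical window elsewhere in the genome held 27 GSK2879552 peaks (interquartile range 16 to 38) and 33 vehicle peaks (21 to 44), and the median of the 10 windows was 20.5 with GSK2879552 and 27 with vehicle.

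The count ratios of the windows rest on few peaks each. In all 10 windows the GSK2879552 list was the shorter, from 0.450 of the vehicle count at 30 to 30.5 Mb (9 against 20 peaks) and 0.462 at 28.5 to 29 Mb to 0.923 at 29.5 to 30 Mb (12 against 13 peaks), apart from the nearly empty window. The window from 32.5 to 33 Mb, with 20 GSK2879552 and 22 vehicle peaks, was also close to equal. At sites held by both lists the scaled ratio of tags in the 9 windows with pairs went from 0.612 (exact binomial 95% interval 0.543 to 0.690) at 30.5 to 31.0 Mb to 0.696 (0.569 to 0.849) at 29.5 to 30 Mb, and these intervals overlap.

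**Figure D2:**
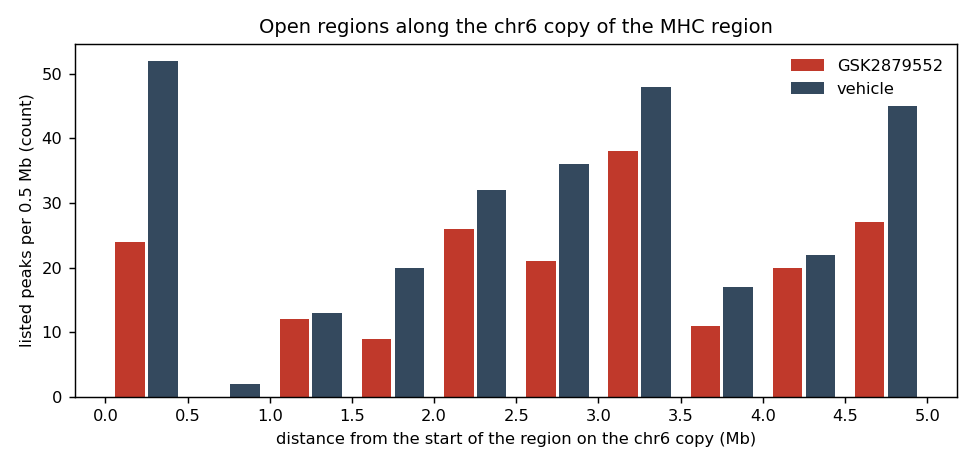
Listed peaks per 0.5 Mb (count, bars from 0) against the distance from the start of the region on the chr6 copy in Mb, with GSK2879552 on the left and vehicle on the right of each pair. The second window is nearly empty (0 against 2 peaks), and the first has the largest absolute gap, 24 against 52.

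Sites listed with GSK2879552 were mostly also open with vehicle. On the chr6 copy 170 of 188 GSK2879552 peaks shared 1 bp or more with a vehicle peak, which is 90.4% (Clopper-Pearson 95% interval 85.3 to 94.2). On the alternative sequences 863 of 910 did, 94.8% (93.2 to 96.2, an interval that takes the copies as independent). Outside the region the share was 76.4% (76.2 to 76.6). With both lists limited to a −log10 q of 5 or more, the share was 94.3% on the chr6 copy, 96.9% on the alternative sequences and 92.7% outside, so most of the distance to the outside value was lost. Thus 18 GSK2879552 peaks of the chr6 copy and 47 of the alternative sequences had no partner, 9.57% and 5.16%, where 23.5% of all GSK2879552 peaks in the series had none. In the other direction 164 of 287 vehicle peaks of the chr6 copy had a GSK2879552 partner, 57.1% (51.2 to 62.9), and 817 of 1379 on the alternative sequences, 59.2% (56.6 to 61.9), against 61.5% (61.3 to 61.8) outside. The 123 vehicle peaks of the chr6 copy without a partner were 42.9%, close to the 38.4% of all vehicle peaks in the series.

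The higher share of GSK2879552 peaks with a partner was found among weak peaks of equal height. Among peaks with under 15 tags, 34 of 44 GSK2879552 peaks on the chr6 copy (77.3%, interval 62.2 to 88.5) and 179 of 218 on the alternative sequences (82.1%, 76.4 to 87.0) overlapped a vehicle peak. Outside the region 38.3% (37.8 to 38.8) of such peaks did, and 41.3% (40.7 to 41.8) of those at the genome-wide background. With 15 to 19 tags the shares were 84.0% (70.9 to 92.8) on the chr6 copy and 97.0% (94.3 to 98.7) on the alternative sequences, against 74.4% outside and 86.8% outside at the genome-wide background. So for 15 to 19 tags the interval of the chr6 copy includes the outside value at equal background, and for under 15 tags it does not. All 59 GSK2879552 peaks with 20 to 29 tags and all 35 with 30 or more on the chr6 copy had a vehicle partner, as did 99.7% and 100% of such peaks outside at the genome-wide background.

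Peaks listed under 1 condition were weak on the chr6 copy. Without a partner, GSK2879552 peaks had a median of 13.5 tags and at most 19, and vehicle peaks a median of 16 tags and at most 26. The strongest GSK2879552 peaks without a partner were chr6:31822367-31822519 and chr6:32562735-32562912, with 19 tags each (exact Poisson interval 11.4 to 29.7). A vehicle peak lay 116 bp from the first and 404 bp from the second. They were followed by chr6:31211711-31212212 and chr6:32936563-32936681 with 18 tags each and chr6:33480172-33480393 with 17 tags. All 5 had a vehicle peak within 404 bp.

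The 5 strongest vehicle peaks without a partner lay farther from any GSK2879552 peak, but that list was the shorter one on this copy (188 against 287 peaks). Distances to a shorter list tend to be longer. At chr6:31589890-31590016 there were 26 tags (17.0 to 38.1), with the nearest GSK2879552 peak 1299 bp away. At chr6:31704068-31704422 there were 25 tags, with the nearest 3056 bp away. These distances hold for the chr6 copy only. At the site near 31704328, matched by spacing as described below, GSK2879552 was listed on 5 alternative sequences. There cox, mann, mcf, qbl and ssto had 28, 16, 18, 16 and 12 tags with GSK2879552, and 27, 18, 30, 27 and 22 with vehicle. Near 31589948 GSK2879552 was listed on cox only, with 15 tags against 17 with vehicle. The next were chr6:32122463-32122611 with 24 tags, whose nearest GSK2879552 peak lay 21221 bp away, and chr6:33043589-33043734 with 23 tags, 84994 bp away. Of the 5, chr6:33129321-33129458, also with 23 tags, was the nearest to a GSK2879552 peak, at 449 bp.

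Where both lists held a site, the GSK2879552 library had fewer tags. Among 155 one-to-one pairs on the chr6 copy the median was 21 tags with GSK2879552 and 29 with vehicle, and in 138 pairs (89.0%) the unscaled GSK2879552 count was the lower one, against 83.1% of all pairs in the series. The genome-wide background of the GSK2879552 list, which is proportional to its number of tags, was 1.18 times that of vehicle. After division by this factor the summed tags, 3648 with GSK2879552 and 4798 with vehicle, gave a ratio of 0.647 (0.619 to 0.675). On the alternative sequences 16506 tags with GSK2879552 and 22223 with vehicle at 759 pairs gave 0.632 (0.619 to 0.645). The same site can enter this sum on several copies, so its interval may be too narrow. Outside the region the ratio was 0.683 (0.682 to 0.684).

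After scaling, the log2 ratio (GSK2879552 over vehicle) had a median of -0.62 (interquartile range -0.78 to -0.47) on the chr6 copy and -0.67 (-0.86 to -0.46) on the alternative sequences, against -0.56 (-0.75 to -0.36) outside the region. This ratio depends on the height of the pair, and few pairs were high on any 1 copy of the MHC. For pairs with 30 to 59 tags over both lists it was -0.66 on the chr6 copy, -0.70 on the alternative sequences and -0.60 outside. For pairs with 60 to 119 tags it was -0.60 on the chr6 copy, -0.66 on the alternative sequences and -0.61 outside. At 60 to 119 tags the chr6 copy was thus within 0.01 of the outside value. The distance between the MHC and the rest was small beside the distance of either from equality.

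Few pairs went against this direction. A scaled ratio above 1 was found in 6 of 155 pairs (3.87%) on the chr6 copy and 21 of 759 (2.77%) on the alternative sequences, against 5.93% of all pairs in the series. A ratio below 0.5 was found in 17 pairs (11.0%) on the chr6 copy and 96 (12.6%) on the alternative sequences, against 7.1% of all pairs. Among pairs with at least 60 tags, 0 of 51 on the chr6 copy were above 1, which allows a share of up to 5.88%, and 0 of 206 on the alternative sequences, which allows up to 1.46%, where all such pairs in the series had 1.29%. In the same pairs 3 of 51 and 9 of 206 were below 0.5, against 3.76% of all. For these stronger pairs both limits lie above the 1.29% of the series.

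**Figure D3:**
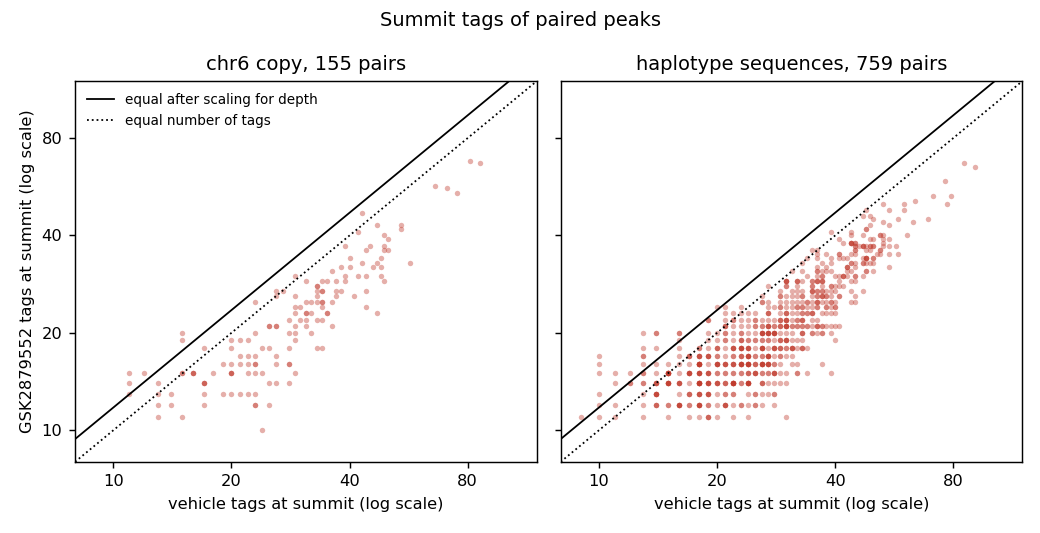
Tags at the summit of paired peaks with GSK2879552 (vertical axis, log scale) and vehicle (horizontal axis, log scale), for the 155 pairs of the chr6 copy on the left and the 759 pairs of the alternative sequences on the right, each point 1 pair. Most points lie under both the line of equal tags and the line of equality after scaling, and the pairs above equality after scaling (6 and 21) are at the low end.

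By single sequence the scaled ratio of summed tags was lowest on apd, 0.612 (0.563 to 0.665, 46 pairs), and highest on mann, 0.659 (0.624 to 0.697, 107 pairs). It was 0.629 (0.602 to 0.657) on cox with 159 pairs and 0.629 (0.597 to 0.663) on dbb with 114 pairs. It was 0.627 (0.593 to 0.662) on mcf with 101 pairs, 0.617 (0.586 to 0.649) on qbl with 122 pairs and 0.643 (0.610 to 0.677) on ssto with 110 pairs. All 7 intervals overlap each other and include the ratio of the alternative sequences together. Only the interval of mann reaches the outside value of 0.683.

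The strongest sites of the chr6 copy lay at its centromeric end. The highest vehicle summit was chr6:33385659-33386291, with 67 tags with GSK2879552 (background 5.29) and 86 with vehicle (background 5.77), a scaled ratio of 0.663 (0.474 to 0.923). The next, chr6:33421929-33422574, had 68 tags with GSK2879552 and 81 with vehicle, and chr6:33377816-33378355 had 54 with GSK2879552 and 75 with vehicle. The next but one, chr6:33359036-33359763, had 57 tags with GSK2879552 and 66 with vehicle. So 4 of the 5 highest vehicle summits lay in the last window of 0.5 Mb.

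The other high sites were scattered. At chr6:32095933-32096270 there were 56 tags with GSK2879552 and 71 with vehicle. At chr6:28554905-28555410 the vehicle summit had 60 tags and its region overlapped the GSK2879552 list without a one-to-one partner. The remaining 4 were chr6:31926676-31927019 with 33 tags with GSK2879552 and 57 with vehicle, chr6:31794985-31795575 with 42 and 54, chr6:32163275-32163863 with 43 and 54, and chr6:31430671-31430990 with 36 and 50. In all 9 of these 10 sites with a pair the GSK2879552 library had fewer tags, before and after scaling. The sites were chosen by their vehicle tags alone, which favours fewer GSK2879552 tags, so no conclusion is drawn from this count. Of all pairs with at least 60 tags in the series, 1.29% had a scaled ratio above 1. Those pairs were chosen by their tags over both lists, so this share is not an equal comparison.

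Ranked by ratio among pairs with at least 60 tags, the lowest site of the chr6 copy was chr6:28641563-28641891, with 23 tags with GSK2879552 and 47 with vehicle, a scaled ratio of 0.416 (0.241 to 0.699). It was followed by chr6:32862063-32862781 with 24 tags with GSK2879552 and 44 with vehicle, a ratio of 0.464 (0.270 to 0.780), and by chr6:31926676-31927019, named above, at 0.492 (0.311 to 0.769). The intervals of the first 3 include 0.647, the ratio of all pairs of the copy. The remaining sites were chr6:31707479-31707790 with 29 tags with GSK2879552 and 49 with vehicle, and chr6:30685083-30685543 with 27 and 44.

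At the other end the highest ratio was 0.930 (0.602 to 1.44), at chr6:33290715-33291187, with 47 tags with GSK2879552 and 43 with vehicle. Only this site among the 5 highest had more tags with GSK2879552 before scaling. It was followed by chr6:30181050-30181411 with 41 tags with GSK2879552 and 42 with vehicle, a ratio of 0.830 (0.527 to 1.31), and chr6:32097834-32098283 with 37 and 39. The last 2 were chr6:33239654-33239951 with 29 and 31 tags, and chr6:28510196-28511001 with 43 and 47. The intervals of all 5 ratios include 1.

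Open sites recurred at the same spacing on the alternative sequences. Peaks of both lists that overlapped were merged into sites, 304 on the chr6 copy and 1420 on the alternative sequences. A run was a series of at least 5 sites whose distance to their chr6 counterpart stayed within 50 bp of 1 offset. Such runs, 64 in all, matched 697 of the 1420 alternative sites (49.1%) to a chr6 site by position, from 44.2% of sites on cox to 56.7% on mcf. Matching by spacing stands in for an alignment, which was not used here.

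**Figure D4:**
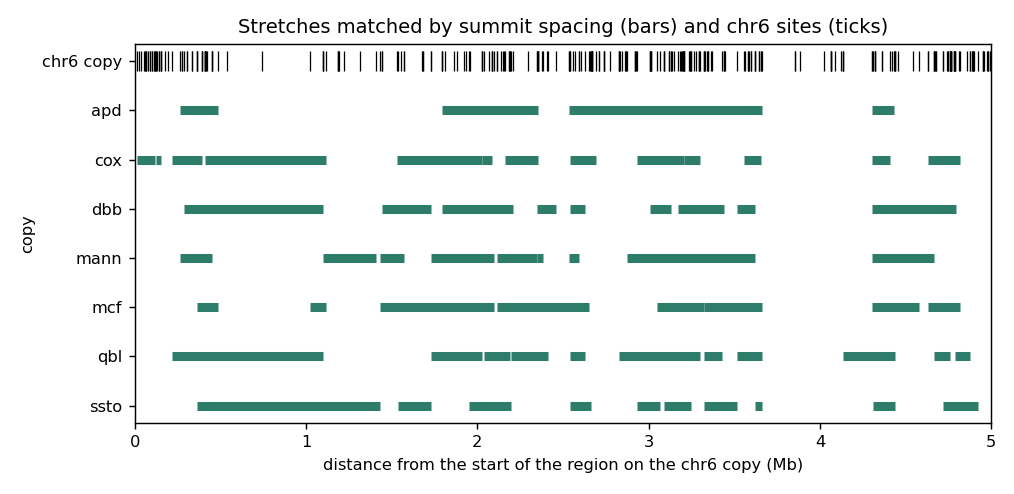
Stretches of the chr6 copy that runs of evenly offset sites cover on each alternative sequence (bars), and the sites of the chr6 copy (ticks), against the distance from the start of the region in Mb. The 64 runs follow each other along the region, and no bar lies in the stretch from 3.66 to 4.13 Mb.

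Where the offset between 2 runs changed by far more than 50 bp, the spacing of sites differed between the copies as assembled, any gaps included. Changes of at least 1000 bp were found 35 times. The largest were of 137 kb on mcf and 114 kb on mann, where the offset shrank. On cox the offset grew by 38.9 kb between chr6 positions 31802372 and 32055554, and on qbl by 32.7 kb between 31926866 and 32016129. By spacing, these assemblies are shorter there by that amount. Between 32163424 and 32806079 the offset grew by 43.0 kb on mcf and 27.8 kb on apd. On ssto it shrank by 83.0 kb by position 32812535, so by spacing that assembly is longer there. None of these differences was checked by alignment. Every run on every alternative sequence stopped at or before 32163424, and the next run began at 32634539 on qbl and at 32806079 or 32812535 on the others.

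The stretch between, of 471 kb, held 11 sites on the chr6 copy, all weak. The highest had 23 tags with GSK2879552 and 32 with vehicle, at chr6:32522776-32523008. Of the 11, 4 were listed in both lists, 4 with GSK2879552 only and 3 with vehicle only. The GSK2879552-only sites formed 2 close groups, with 9 tags at chr6:32353151-32353283 and 11 tags at chr6:32353429-32353540, and with 19 tags at chr6:32562735-32562912 and 15 tags at chr6:32563060-32563215. The vehicle-only sites had 13 tags at chr6:32381359-32381458, 14 at chr6:32625589-32625688 and 22 at chr6:32634191-32634344. In the chr6 copy as a whole 18 GSK2879552 and 123 vehicle peaks had no partner. In the whole series 23.5% of GSK2879552 peaks and 38.4% of vehicle peaks had none. With 11 weak sites, and the 4 GSK2879552-only ones in 2 close groups, the stretch is too small to be set against these values. This stretch was singled out after its runs and values were seen.

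Laid on chr6 positions, with neighbouring summits within 100 bp linked, the chr6 sites and the alternative sites inside runs formed 436 sites. Of these, 154 were listed on 1 copy and 282 on 2 or more, with 31 on 7 copies and 9 on 8. Listed on alternative sequences but not on the chr6 copy were 132 sites, 37 of them on at least 2 sequences. Runs cover only part of each sequence, so a site seen on 1 copy may have unmatched counterparts. A peak whose summit lay more than 100 bp away on another copy could count as a separate site. Near 31795301 apd, dbb and qbl had 44, 45 and 46 tags with GSK2879552 and counted as not on chr6. That position lies inside the chr6 peak chr6:31794985-31795575. Counts of sites on few copies, off chr6 or in 1 list may therefore be too high, here and below.

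Over all copies there were 847 listings with GSK2879552 and 1327 with vehicle. GSK2879552 had more copies at 29 sites, both lists had equally many at 169, and vehicle had more at 238. Sites open in the GSK2879552 list only numbered 26, of which 23 were on 1 copy and 3 on 2 copies. Sites open in the vehicle list only numbered 154, of which 86 were on 1 copy, 68 on at least 2 and 22 on at least 4. Another 256 sites were in both lists. In the whole series 23.5% of GSK2879552 peaks and 38.4% of vehicle peaks had no partner. So no GSK2879552-only site was seen on more than 2 copies, while vehicle-only sites were seen on up to 7. Counts by copy were not made elsewhere in the genome, so there is no outside value to set beside these.

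The vehicle-only site on the most copies stood near chr6 position 32121801. With vehicle it had 13 tags on chr6, 11 on apd, 14 on cox, 10 on dbb, 10 on mann, 13 on qbl and 15 on ssto, and with GSK2879552 it was on no list. A similar site near 30421620 had 17, 19, 18, 14, 16 and 12 vehicle tags on chr6, apd, cox, dbb, mann and mcf. The smallest number of tags at any listed summit was 9 with GSK2879552 and 8 with vehicle, so at this depth the absence from the GSK2879552 list does not show that the sites were closed.

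Copies of the same site had similar tags. Near 30685334 the 8 copies had 27, 34, 33, 35, 32, 32, 33 and 30 tags with GSK2879552 (chr6, apd, cox, dbb, mann, mcf, qbl and ssto, the order kept below), and 44, 48, 44, 38, 45, 55, 44 and 45 tags with vehicle. The groups do not overlap, and every copy was lower with GSK2879552. Copies may share reads and are not replicates, so overlap or its absence, here and below, describes the listed values only. Near 30688004 there were 30, 35, 33, 41, 31, 38, 39 and 37 tags with GSK2879552, and 42, 55, 45, 39, 50, 44, 41 and 45 with vehicle. Here the highest GSK2879552 copy, dbb, exceeded its own vehicle value. Near 32862467 there were 24, 22, 27, 27, 25, 30, 29 and 26 tags with GSK2879552, and 44, 34, 37, 40, 34, 33, 38 and 36 with vehicle, again without overlap.

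Of the other 6 sites listed on 8 copies with vehicle, 3 were listed on all 8 copies with GSK2879552 too. Near 32812534 there were 29, 25, 24, 20, 25, 21, 23 and 21 tags with GSK2879552, and 34, 34, 38, 36, 29, 35, 35 and 37 with vehicle, so every copy was lower with GSK2879552. Near 32821918 there were 32, 18, 26, 22, 26, 14, 26 and 16 tags with GSK2879552, and 38, 26, 33, 33, 33, 24, 37 and 27 with vehicle, again with every copy lower although the groups overlap. Near 31548781 there were 19, 15, 17, 14, 13, 14, 16 and 20 tags with GSK2879552, and 21, 23, 19, 26, 19, 19, 21 and 19 with vehicle, and here ssto was 1 tag higher with GSK2879552. The remaining 3 sites were missing from some copies in the GSK2879552 list. Near 32821005 the vehicle tags were 12, 10, 13, 15, 13, 14, 12 and 13, and GSK2879552 was listed on mann only, with 14 tags. Near 32122540 the tags were 12, 16, 16, 17, 15, 14 and 17 with GSK2879552 on the 7 alternative sequences, and 24, 26, 26, 24, 22, 25, 22 and 25 with vehicle on all 8 copies. This site is the one listed above as a vehicle peak without a partner on the chr6 copy, with the nearest GSK2879552 peak there 21221 bp away. On the other 7 copies it did have a partner. Near 32908861 GSK2879552 was listed on chr6, mann and ssto with 18, 18 and 16 tags, while vehicle had 17, 26, 24, 28, 14, 28, 27 and 24. The copies with the fewest vehicle tags, chr6 and mann, were thus among the 3 listed with GSK2879552.

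**Figure D5:**
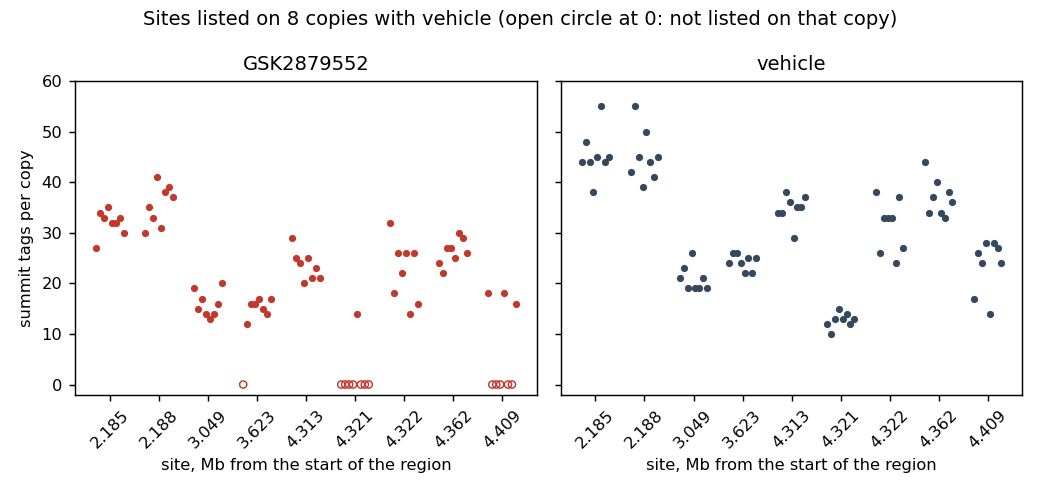
Tags at the summit on each of the 8 copies (points, in the order chr6, apd, cox, dbb, mann, mcf, qbl, ssto from left to right) for the 9 sites listed on 8 copies with vehicle, with GSK2879552 on the left and vehicle on the right. Open circles at 0 mark copies on which the site was not listed, and at the site near 32821005 this is so for all GSK2879552 copies except mann.

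A site could also differ between copies in the same way in both lists. Near 32806587 the GSK2879552 tags were 34, 25, 27 and 30 on chr6, cox, mann and qbl, and 13, 15 and 19 on apd, dbb and mcf. With vehicle the same first 4 copies had 40, 37, 39 and 37 tags, and the other 3 had 19, 15 and 20. The 2 groups of copies do not overlap in either list, but they were formed from these same values. The site was also chosen after its values were seen, so it is an example only. Over all sites on at least 4 copies in both lists, the deviation of a copy from its site's mean log2 tags had a Pearson correlation of 0.28 and a Spearman correlation of 0.18 between the lists. This is over 567 points of site and copy, which share sites and reads, and it is a weak relation.

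The highest single summits were at sites on 2 copies. Sites on 1 copy reached 37 tags with GSK2879552 and 49 with vehicle. Sites on 2 copies reached 68 tags per copy with GSK2879552 and 91 with vehicle, and sites on 8 copies reached 41 with GSK2879552 and 55 with vehicle. The 2 highest sites at the centromeric end of the region were among them. Near 33386024 the only matched alternative was ssto, with 67 tags with GSK2879552 and 85 with vehicle, almost equal to the 67 and 86 of chr6. Near 33422279 ssto had 65 tags with GSK2879552 and 91 with vehicle. The site near 33378177 was on 3 copies, where qbl had 59 and ssto 53 tags with GSK2879552, and qbl 76 and ssto 79 with vehicle.

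The median per copy was 15 tags with GSK2879552 and 14 with vehicle at sites on 1 copy. It was 26 with GSK2879552 and 31 with vehicle at sites on 8 copies. A copy counts only where the site was listed, and higher sites are listed on more copies. This difference is thus favoured by the counting rule, and no conclusion is drawn from it. At the sites on 8 copies the sum reached 284 tags with GSK2879552 and 363 with vehicle, above the highest single summit of the whole lists, 199 tags with GSK2879552 and 197 with vehicle. At the sites on at least 6 copies with at least 20 tags on each, 20 with GSK2879552 and 43 with vehicle, the highest copy had a median of 1.37 times the tags of the lowest with GSK2879552 and 1.33 times with vehicle. The minimum on each copy limits this ratio.

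Over the copies, lower tags with GSK2879552 were seen at each well-covered site. There were 103 sites on at least 4 copies in each list. In all 103 the tags summed over shared copies were fewer with GSK2879552, before and after scaling, and in 98 every shared copy had a scaled ratio below 1. Among single pairs with at least 60 tags in the whole series, only 1.29% had a scaled ratio above 1, so this direction was not particular to the MHC. The median log2 ratio of these sites was -0.67 (interquartile range -0.74 to -0.61). The lowest was -0.95, near 33244844, with 71 tags with GSK2879552 and 117 with vehicle over 5 copies. The highest was -0.25, near 28911442, with 111 and 112 tags over 6 copies. Since copies may share reads, these sums do not add independent evidence for a site.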

How the data were processed

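ATAC-seq, in which a transposase tags accessible DNA, was run on LNCaP cells with GSK2879552 or vehicle. The submitters' processing notes list BWA 0.7.2, SAMtools 0.1.18 and MACS2 2.1.2 with the builds hg19 and GRCh37, without role or order. Handling of multiply matching reads, duplicates and the transposase shift is not given in the sources used. The deposited lists give per peak a score, a fold enrichment (ratio to background), a −log10 p, a −log10 q and a summit offset, all the authors' values. Coordinates are 1-based hg19.

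Tags and background were solved from the deposited fold and −log10 p, and came out whole, to 0.001 in −log10 p, for 100% of peaks in each list. The inversion and the spacing match were tested on simulated data. Pairs overlap 1 peak of the other list each. Tags were scaled by 1.18. Intervals cover counting error only, and those over several copies take tags and peaks as independent. Python 3.11.15, NumPy 2.4.6, pandas 2.3.3, SciPy 1.17.1 and Matplotlib 3.10.9 were used.

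The members, lists and rules were chosen with earlier results of these data known. Regions named are the 10 highest vehicle summits, the 5 highest and 5 lowest ratios among pairs with at least 60 tags and the 5 highest peaks without partner per list. The highest peak of each alternative sequence was also computed. Matched sites named in the text were chosen after their values were seen. Gene lists planned for an annotation of build hg19 were not used here. Alternatives changed the listing level, borders, overlap rule, scaling, background and run settings.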

Additional observations from a re-analysis of the deposited data

How the results depend on the processing

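No paired analysis was possible because each condition was 1 library whose 2 lanes are technical replicates, and for the same reason no replicate could be left out. Unless the alternative itself shows the cause, it was not tested. With borders of 29500000 and 33000000 the chr6 copy held 137 peaks with GSK2879552 and 188 with vehicle, in place of 188 and 287, since less of the chromosome is counted, and the ratio was 0.729 in place of 0.655. At a −log10 q of 5 or more it was 0.610. With a reciprocal overlap of 50% the share of GSK2879552 peaks with a partner was 71.8% on the chr6 copy and 72.6% on the alternative sequences (62.8% outside), and that of vehicle peaks 47.0% and 47.9% (52.9% outside). With both lists limited to a −log10 q of 5 or more, the GSK2879552 shares were 94.3% and 96.9% (92.7% outside). With summits within 250 bp the alternative sequences had 89.5%. The median log2 ratio was -0.39 on the chr6 copy and -0.43 on the alternative sequences with no scaling (-0.32 outside), and -0.69 and -0.73 with the background subtracted (-0.61 outside). Of 33 further alternative values, every count lay within 1.5 times its main value and every share within its counting interval. The log2 ratios of pairs with at least 60 tags were -0.59 on the chr6 copy and -0.66 on the alternative sequences. Among the 45 alternatives no log2 ratio changed sign, while counts and shares have no direction that could turn. The window and run alternatives were chosen after seeing the data. Depth limits weak sites most: no listed summit had fewer than 9 tags with GSK2879552 or 8 with vehicle, and absence from a list does not show a closed site.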

Other observations

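On ssto the highest GSK2879552 summit, 67 tags at chr6_ssto_hap7:4865946-4866529, and the highest vehicle summit, 91 tags at chr6_ssto_hap7:4902166-4902760, matched the 2 highest sites of the chr6 copy. On qbl both lists had their highest summit at 1 site, with 59 tags with GSK2879552 and 76 with vehicle. On mcf the highest GSK2879552 summit had 51 tags and the highest vehicle summit 77, at different sites. On mann they had 48 tags with GSK2879552 and 53 with vehicle, on cox 48 and 69, on dbb 45 and 61, and on apd 50 and 63. The mann site with 48 tags, at chr6_mann_hap4:3506098-3506705, had 48 tags with vehicle too, and its scaled ratio was 0.851 (0.558 to 1.30).

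At sites shared with the chr6 copy, no alternative sequence stood clearly above or below it. With vehicle the median log2 ratio of alternative to chr6 tags went from -0.05 on mann to 0.03 on cox, over 60 to 166 sites per sequence. With GSK2879552 it went from -0.10 on apd to 0.08 on mann, over 30 to 95 sites.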
